A study of Mus musculus with 7 samples.

Results

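The Krüppel-like factor (KLF) family loci described here are the 9 mouse genes Klf2, Klf3, Klf4, Klf5, Klf6, Klf7, Klf9, Klf10 and Klf13, each taken as its gene body plus 40 kb on either side in GENCODE M21 on mm10. An open-chromatin region (OCR) belonged to a locus when it overlapped this window. Peaks of 7 libraries that overlapped by at least 1 bp were merged into 144931 OCRs, of which 102 lay in the 9 windows. All 7 libraries were bulk ATAC-seq of HPC7, an established mouse hematopoietic progenitor line kept in medium with stem cell factor, and each came from its own culture batch. The labels give 1 cell line and no treatment, so there was 1 group of 7 replicates (HPC7-1, HPC7-2 and HPC7-4 to HPC7-8), and comparisons were made between regions of the same library. The study used these libraries as a bulk reference for single-nucleus ATAC-seq of hashed nuclei.

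KLF proteins are zinc-finger transcription factors that bind GC-rich and CACCC-type elements and are relatives of the SP factors. They are commonly divided by their cofactors. Klf2, Klf4, Klf5, Klf6 and Klf7 belong to the group that includes many activators, Klf3 recruits the corepressor CtBP, and Klf9, Klf10 and Klf13 bind the corepressor Sin3a. In ATAC-seq the Tn5 transposase cuts accessible DNA, so that active promoters and enhancers appear as OCRs, but an OCR does not measure transcription and does not say which gene a distal element serves.

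The intensity of an OCR is the fold enrichment of reads at its summit over the background of the library, as deposited. It is given here as a percentile, the percent of the peaks of the same library with an equal or lower fold enrichment, because the background differed between libraries, from 4.44 reads in HPC7-2 to 20.4 reads in HPC7-1. The lists held between 84593 and 132852 peaks, and 65 (HPC7-6) to 97 (HPC7-1) of them fell in the KLF windows, a mean of 79.9 ± 10.9 (SD, n = 7). The peaks of 4 lists (HPC7-5 to HPC7-8) bear names with the prefix EtOH, and those of the remaining 3 the prefix VD. What these prefixes stand for is not given in the sources used here, and they were not used as groups. Should they mark a treatment and its control, each mean ± SD over 7 libraries would pool both, so values within each prefix are given below where they bear on a result. The promoters of all 9 hematopoietic progenitor markers examined (Kit, Gata2, Lmo2, Tal1, Lyl1, Runx1, Cd34, Spi1 and Ptprc) had an OCR in 7 of 7 libraries, above the 75th percentile in each. Of 9 markers of other tissues, 4 (Sftpc, Cdh5, Pax6 and Myod1) also had a promoter OCR in every library, 2 in some and 3 (Alb, Ins2 and Myh6) in none, so a promoter OCR alone did not mark a lineage gene.

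Promoter openness divided the family. An OCR counted as a promoter OCR when it reached within 3 kb of an annotated start of the gene. Among all peaks, Klf7, Klf13, Klf10 and Klf6 had promoter OCRs near the top of every library, and Klf3 and Klf2 had ones of middle intensity. Klf4 had a faint one in 4 libraries, and Klf5 and Klf9 had none. Promoters rank high among all peaks, with a median percentile of 93.1 over 13369 genes with a promoter OCR in all libraries. Klf3 and Klf2 were below this median. Klf6 was above 89.6% of protein-coding genes, Klf3 above 46.1% and Klf2 above 44.5%. In all 7 libraries a promoter OCR was found at 6 of 9 members, where 61.0% of 21911 protein-coding genes had one. No library had a promoter OCR at 2 of 9 members, against 32.0% of all genes. Above the 75th percentile in every library were 4 of 9 members, against 50.6% of all genes. These shares are close to the background, and the members as a set are described, not tested.

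**Figure D1:**
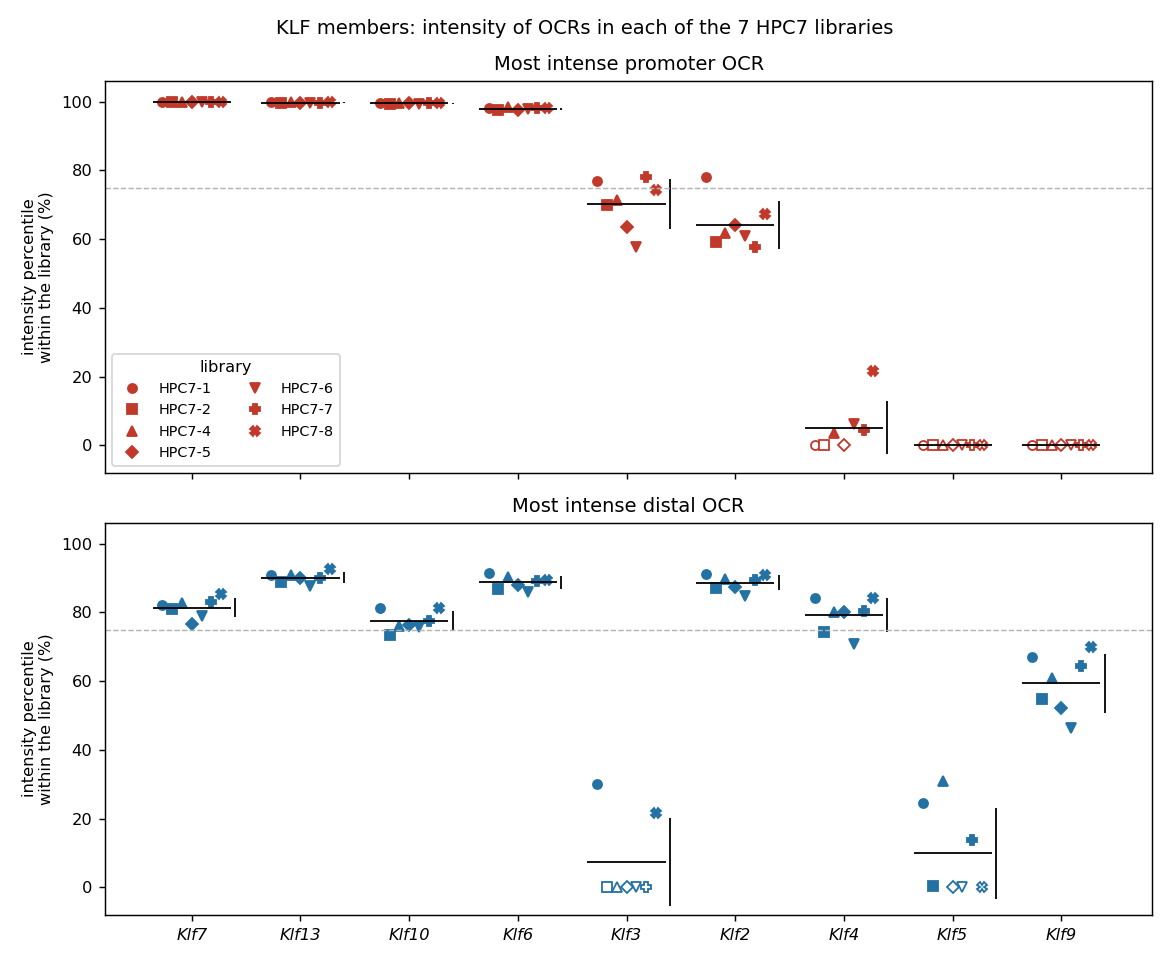
Intensity percentile of the most intense promoter OCR (upper panel) and distal OCR (lower panel) of each KLF member in each library; markers are the 7 libraries, horizontal bars the mean, vertical bars the SD, open markers a library without a peak (drawn at 0), and the dashed line the 75th percentile. Promoter values fall from 99.8 at Klf7 to 0 at Klf5 and Klf9, while Klf2, Klf4, Klf5 and Klf9 have a higher mean in the lower panel than in the upper one.

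The most intense promoter was that of Klf7, with a fold enrichment of 178 in the lowest library, 254 in the median and 318 in the highest. Its percentile was 99.8 ± 0.0529 (SD, n = 7), above that of 99.2% of protein-coding genes. Klf13 followed with fold enrichments of 167, 236 and 289 (lowest, median and highest library) and a percentile of 99.7 ± 0.0597. Klf10, a gene induced early by TGF-beta, had 143, 214 and 264 and a percentile of 99.5 ± 0.133. Klf6, which is widely expressed and induced by injury, had 105, 145 and 167 and a percentile of 97.9 ± 0.304. Across libraries the fold enrichments of Klf7, Klf13 and Klf10 overlapped, but within each of the 7 libraries the percentiles had the order Klf7, Klf13, Klf10 and Klf6.
A step of 27.7 ± 7.17 percentile points separated Klf6 from Klf3, again with the same sign in 7 of 7 libraries. Klf3 had a percentile of 57.8, 71.3 and 78.2 in its lowest, median and highest library (mean fold enrichment 13.5 ± 3.29), and Klf2 had 57.6, 61.8 and 78.2 (mean fold enrichment 10.5 ± 2.89). These neighbours did not differ beyond their spread, since Klf3 was the higher in 4 of 7 libraries. The highest value of Klf2 was that of HPC7-1, while its other 6 libraries reached at most 67.2.
Klf4 had no promoter peak in HPC7-1, HPC7-2 and HPC7-5, and the reads at its summit numbered 22, 18, 18 and 25 in HPC7-4, HPC7-6, HPC7-7 and HPC7-8. The mean fold enrichment of these 4 peaks was 3.06 ± 0.496, where the lowest fold enrichment listed in a library lay between 1.68 (HPC7-1) and 2.44 (HPC7-5). The libraries without the peak were that with the highest background, HPC7-1, and those with the lowest, HPC7-2 and HPC7-5. The peak was thus listed in 3 of 4 EtOH and 1 of 3 VD libraries, and with a missing peak set to 0 the mean percentile was 8.13 and 1.22, a difference that was not tested. HPC7-8, an EtOH library, had the highest percentile, 21.7. Without HPC7-8 the mean over the libraries was 2.42 instead of 5.17. The call is weak, for only 1 library kept it at a -log10 q of at least 5 or with equal numbers of peaks, and 3 kept it at 50% coverage of the OCR. At Klf5 and Klf9 no peak was listed within 3 kb of any start, so an accessibility under the calling limit was not detectable there.

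Fold enrichments also differ by chromosome. Among genes with a promoter OCR in all libraries, the median promoter fold enrichment was 1.24 ± 0.0316 times that of the median autosome on chromosome 1 (Klf7) and 1.38 ± 0.0381 times on chromosome 8 (Klf2), and between 0.990 and 1.05 times on the chromosomes of Klf3, Klf6, Klf10 and Klf13. After division by these ratios, a step added after the data were seen, Klf13 stood at 218 ± 44.9, Klf10 at 208 ± 43.2, Klf7 at 202 ± 44.7, Klf6 at 136 ± 23.9, Klf3 at 13.7 ± 3.54 and Klf2 at 7.68 ± 2.29. The order within the highest 3 thus depends on this scaling, and the gap between Klf6 and Klf3 does not. The part of the chromosome in these values was not tested.

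The intense promoters were also wide. The merged promoter OCR spanned 5131 bp at Klf7, 5060 bp at Klf13, 4719 bp at Klf6 and 4716 bp at Klf10, where the median of 26541 OCRs at any promoter in all libraries was 1235 bp, and the narrowest of these 4 was wider than 97.9% of them. That of Klf3 measured 1598 bp and that of Klf2 879 bp. The OCR of Klf6 also reaches the 3 kb around a start of the neighbour 1700016G22Rik, so its reads cannot be assigned to Klf6 alone.

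By class, the 102 OCRs were 15 at promoters of the members, 22 at promoters of other genes in the windows and 65 distal ones. A peak in all 7 libraries was found at 12, 9 and 28 of these, respectively. For distal OCRs this was 43.1%, against 41.9% of 96540 distal OCRs genome-wide. For the promoter classes together it was 56.8%, against 54.8% of 48391 OCRs at any promoter, and for all classes 48.0% against 46.2%. Of the 15 OCRs seen in 1 library, 12 were in HPC7-1, 2 in HPC7-4 and 1 in HPC7-5. HPC7-1, which had both the highest background and the longest list (132852 peaks), supplied most of the unshared KLF OCRs, whose percentiles reached at most 30.1. OCRs seen in 1 library made up 14.7% of the KLF OCRs, against 17.9% of all OCRs. How those of the whole genome divide among the libraries is not given here.

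**Figure D2:**
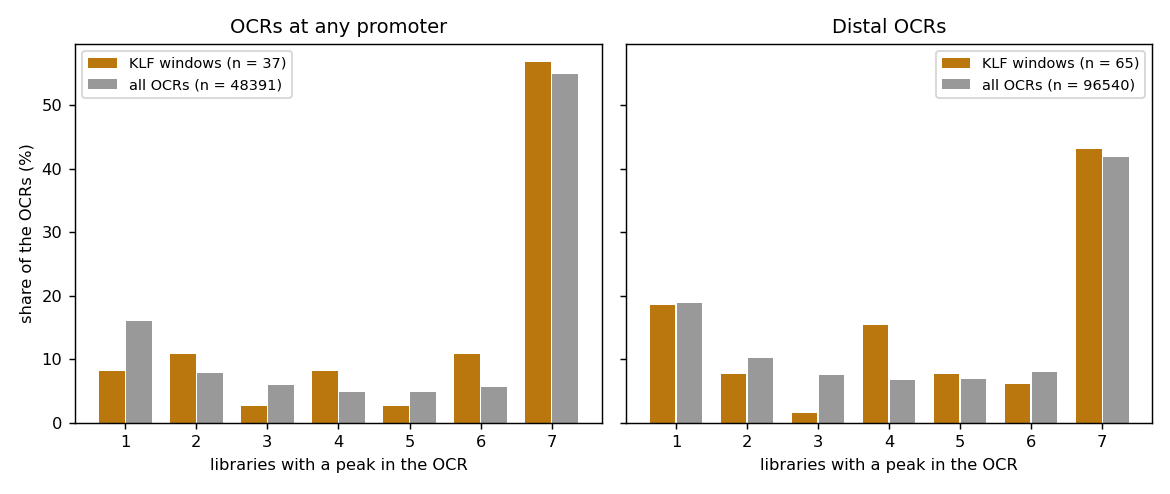
Share of OCRs (%) found in 1 to 7 libraries (horizontal axis), for OCRs at any promoter (left) and distal OCRs (right) in the KLF windows (brown) and genome-wide (grey). In both panels the bar for 7 libraries is the highest, 43.1% for distal KLF OCRs and 41.9% for all distal OCRs.

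At least 1 distal OCR in all libraries was found for 7 of 9 members, where 73.2% of protein-coding genes had one. Klf3 and Klf5 had none. The width of the window decides this for 3 members, since with 20 kb Klf4 and Klf9 had none either (5 of 9 members had one) and with 80 kb Klf3 had 1 (8 of 9). The 28 distal KLF OCRs of all libraries lay between genes (17) or in introns (11), and their mean percentiles ran from 31.7 to 90.1 with a median of 58.3, against 60.8 for all distal OCRs of this kind. Above the 75th percentile were 8 of the KLF ones and under the 50th another 8, for which no genome-wide shares are given here. Per 100 kb of window, Klf2 had 9.68 distal OCRs of all libraries, more than 98.5% of protein-coding genes, Klf6 had 5.62, Klf13 4.53, Klf7 2.89, Klf10 2.24, Klf4 1.17 and Klf9 0.935, where the median gene had 1.89. These numbers depend on how an OCR is counted. When peaks of every library had to cover at least 50% of the merged OCR, Klf2 had 5 distal OCRs of all libraries instead of 8. Klf6 had 3 instead of 5, Klf13 4 instead of 6, Klf7 4 instead of 5 and Klf10 1 instead of 2. Over all classes, 36 OCRs instead of 49 were then in all libraries. Windows of neighbouring genes share OCRs, and those of Klf2 lie partly in another gene.

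**Figure D3:**
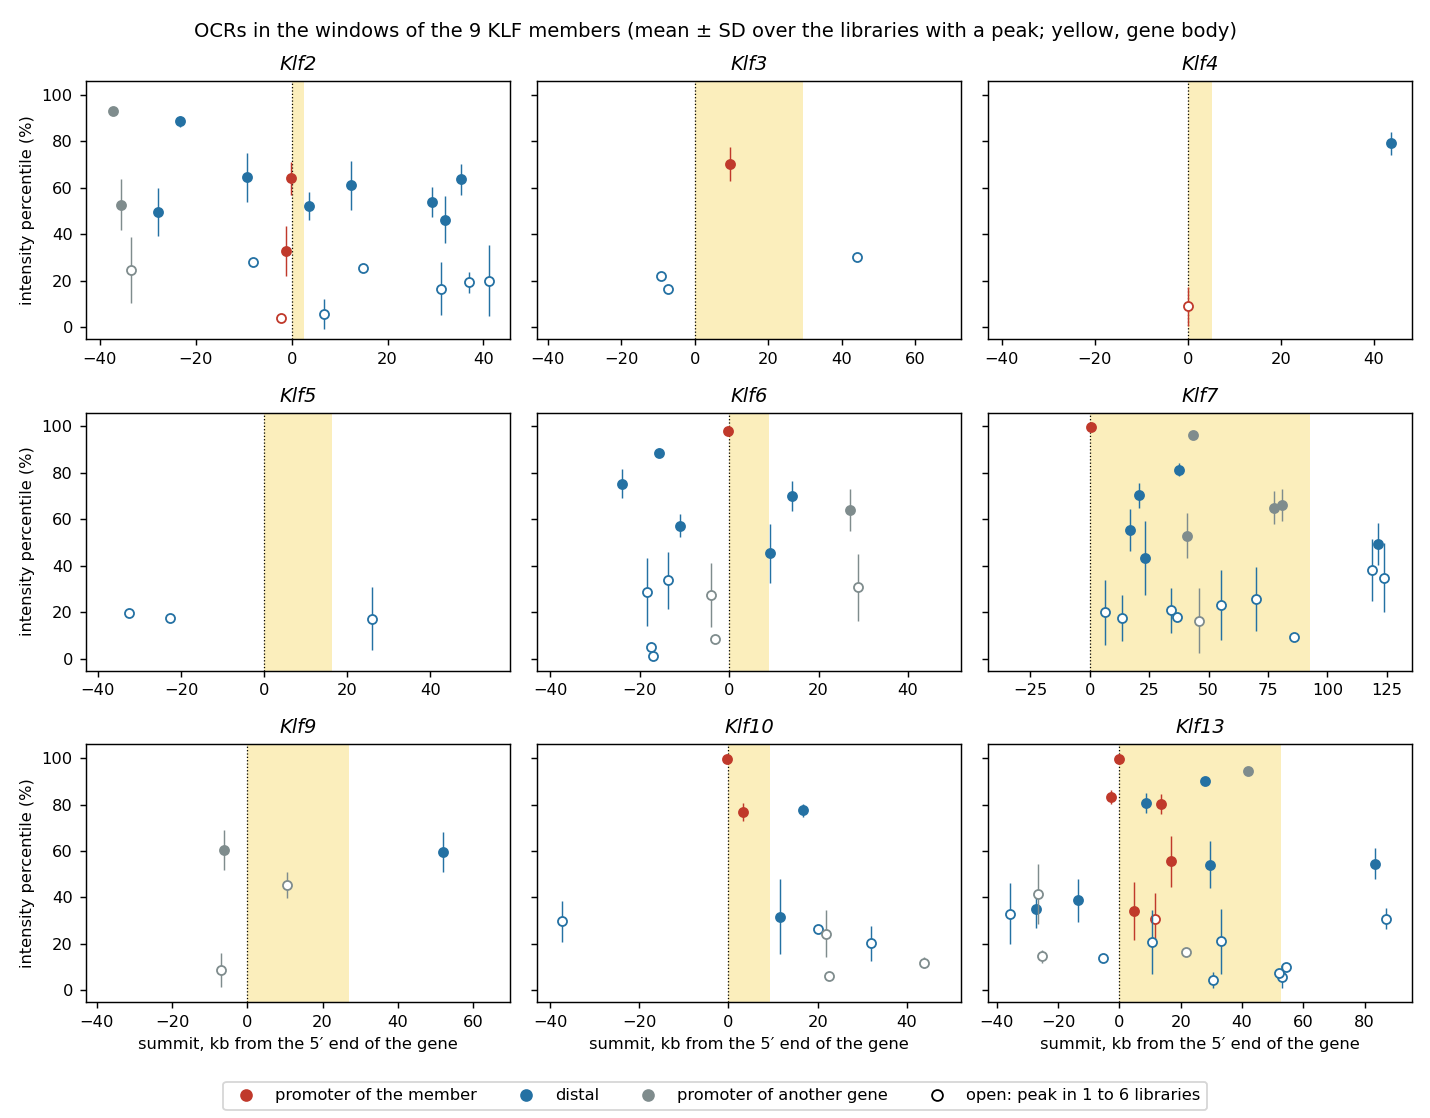
Every OCR in the 9 windows by the distance of its summit from the 5′ end of the gene (kb, positive downstream) and its intensity percentile (mean ± SD over the libraries with a peak); red marks promoters of the member, blue distal OCRs, grey promoters of other genes, open symbols OCRs in 1 to 6 libraries, and yellow the gene body. The windows of Klf2, Klf6, Klf7 and Klf13 are full, whereas Klf3, Klf4, Klf5 and Klf9 have 4 OCRs or fewer each.

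The comparison that 1 group allows is that of a promoter with the most intense distal OCR of its window in the same library. It was made for 12126 protein-coding genes with both in 7 of 7 libraries (two-sided exact permutation test that flips the signs of the library differences, adjusted by Benjamini-Hochberg over all of these genes), and 5 members could be tested. The promoter was the more intense at 74.8% of the genes and the distal OCR at 19.4%. Among the members, the promoter was the more intense at Klf6, Klf7, Klf10 and Klf13 (4 of 5), and the distal OCR at Klf2 (1 of 5). The libraries did not disagree in sign at any of the 5, which gives an exact permutation p = 0.0156, the smallest that 7 libraries allow, and adjusted p = 0.0171.
At Klf2 the log2 ratio of promoter to distal fold enrichment was -2.64, -2.29 and -1.85 in the lowest, median and highest library, a mean of -2.24 ± 0.32, so that the distal OCR was 4.72-fold higher. Of the tested genes 3.60% had a lower ratio. Within the 40 kb window and with promoters of 3 kb, this call rests on a single OCR. With a window of 20 kb, which leaves it out, the log2 ratio was -0.11 (same exact permutation test, adjusted p = 0.492), and against the second distal OCR it was -0.15 (adjusted p = 0.318). With a window of 80 kb, where a more intense distal OCR came in, it was -4.30 (same exact permutation test, adjusted p = 0.0172). With promoters of 1 kb it was -2.93 (same exact permutation test, adjusted p = 0.0171). That value is against another OCR, at -37.2 kb, with a mean fold enrichment of 79.6 ± 17.2. By the 3 kb rule this OCR is at the promoter of Gm39197, and by the 1 kb rule it counted as distal.
The ratio was 3.44 ± 0.23 at Klf10 (10.8-fold), 3.33 ± 0.34 at Klf7 (10.0-fold), 2.02 ± 0.16 at Klf13 (4.07-fold) and 1.51 ± 0.11 at Klf6 (2.85-fold), where the median gene had 1.54. Klf6 was thus at the middle of all genes, with 49.3% of them lower. Within the 3 VD libraries and the 4 EtOH libraries the mean ratio was -2.25 and -2.23 at Klf2, 3.62 and 3.31 at Klf10, 3.42 and 3.26 at Klf7, 2.12 and 1.95 at Klf13, and 1.46 and 1.55 at Klf6, with the same sign in every library of either.

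**Figure D4:**
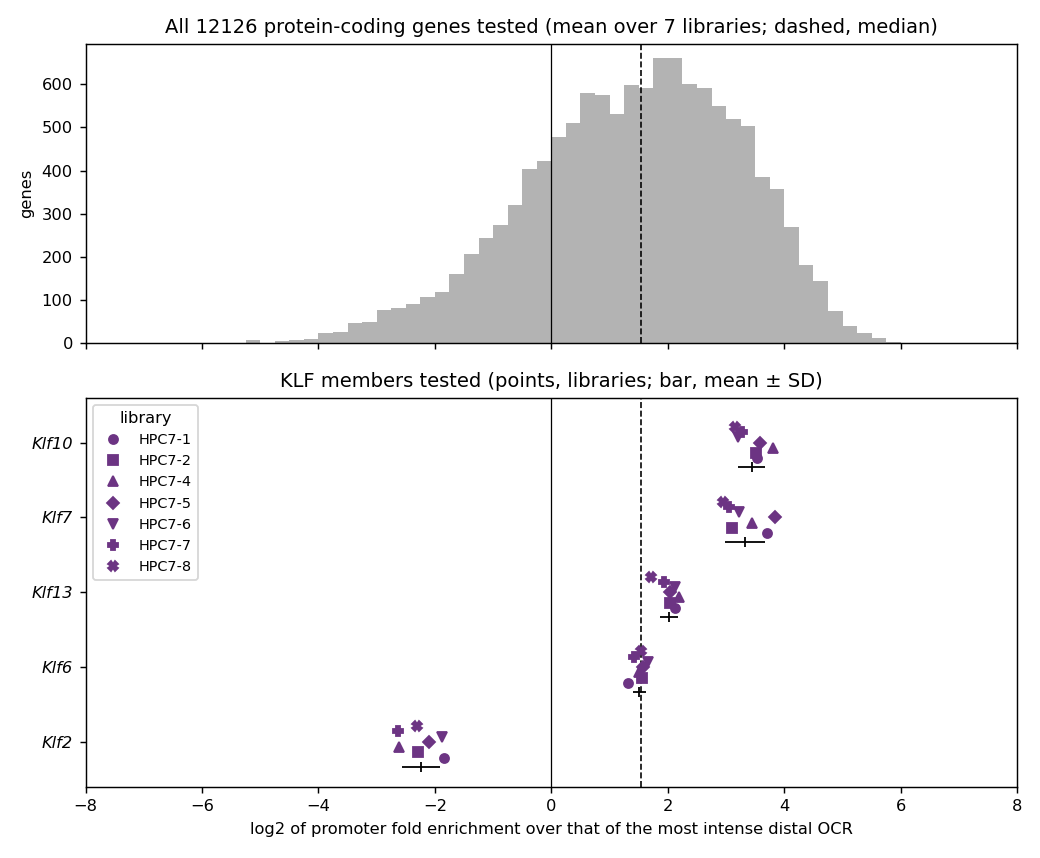
Log2 of the promoter fold enrichment over that of the most intense distal OCR, for all 12126 genes tested (upper panel, histogram of the mean over 7 libraries) and for the 5 KLF members tested (lower panel, points are libraries and bars the mean ± SD); the solid line is 0 and the dashed line the median gene, 1.54. Klf2 lies left of 0 in all libraries and the other 4 members right of it.

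The sequences at the summits of the most intense distal OCRs are shown for the 5 members with the highest values, because these OCRs carry the strongest distal signal of the loci. Each is 200 bases of GRCm38 (mm10) around the summit, 5′ to 3′ on the strand of the gene. Capitals mark matches on either strand to 6 short motifs. The KLF and SP type is written CCNCNCCC, where N is any base. The motif of GATA factors was taken as AGATAA. For ETS factors the letters GGAAGT were used. The E-box, bound by factors such as Tal1, is written CAGNTG. The RUNX type is TGTGGT in these searches. For AP-1 the letters TGANTCA were searched for, a choice made after sequences had been seen.
Klf13 distal OCR, chr7:63910963-63911162, - strand: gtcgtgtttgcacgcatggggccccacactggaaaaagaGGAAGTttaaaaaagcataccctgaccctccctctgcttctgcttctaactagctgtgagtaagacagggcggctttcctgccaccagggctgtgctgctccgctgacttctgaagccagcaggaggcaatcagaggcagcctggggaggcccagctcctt
Klf6 distal OCR, chr13:5845691-5845890, + strand: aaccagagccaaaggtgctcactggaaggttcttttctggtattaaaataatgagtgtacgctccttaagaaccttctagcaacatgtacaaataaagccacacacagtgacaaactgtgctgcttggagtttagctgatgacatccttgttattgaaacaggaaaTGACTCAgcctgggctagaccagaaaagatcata
Klf2 distal OCR, chr8:72295765-72295964, + strand: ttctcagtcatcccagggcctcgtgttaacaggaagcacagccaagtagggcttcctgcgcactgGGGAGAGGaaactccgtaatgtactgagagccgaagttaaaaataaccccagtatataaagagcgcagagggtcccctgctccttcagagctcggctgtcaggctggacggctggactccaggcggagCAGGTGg
Klf7 distal OCR, chr1:64084826-64085025, - strand: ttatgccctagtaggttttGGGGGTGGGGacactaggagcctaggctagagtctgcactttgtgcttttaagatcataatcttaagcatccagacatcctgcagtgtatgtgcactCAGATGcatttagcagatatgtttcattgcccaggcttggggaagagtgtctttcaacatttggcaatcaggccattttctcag
Klf4 distal OCR, chr4:55488702-55488901, - strand: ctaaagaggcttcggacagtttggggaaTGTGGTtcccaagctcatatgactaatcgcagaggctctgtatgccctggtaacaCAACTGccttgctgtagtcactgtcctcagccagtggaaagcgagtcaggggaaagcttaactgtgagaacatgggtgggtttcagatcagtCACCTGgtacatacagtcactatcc
None of these stretches overlaps an exon. The Klf2 and Klf7 stretches hold KLF and SP type matches, the Klf13 stretch an ETS type match, the Klf6 stretch an AP-1 type match, and the Klf4 stretch a RUNX type match. E-box matches are in those of Klf2, Klf7 and Klf4.

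Over the 28 distal KLF OCRs of all libraries, within 100 bp of the summit, the KLF and SP type letters were found in 9 (32.1%), against 21.2% of 40438 distal OCRs genome-wide. ETS type letters were in 11 (39.3% against 29.1%), RUNX type in 10 (35.7% against 30.8%), E-box in 13 (46.4% against 48.3%), AP-1 type in 7 (25.0% against 13.1%) and GATA type in 3 (10.7% against 17.6%). The 7 OCRs with AP-1 type letters lay at Klf2, Klf6, Klf7 and Klf10, and the 3 with GATA type letters at Klf6, Klf10 and Klf13. Because the AP-1 type was chosen after sequences had been seen, and the 7 include the Klf6 stretch shown above, its share is not independent of that choice. At the 12 promoter OCRs of the members found in all libraries, 4 held the KLF and SP type letters (33.3%, against 38.4% of all promoter OCRs). No test was made on these counts, and a match is not a binding site.

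Klf2, a regulator of quiescence and trafficking in T cells and of the response of endothelium to flow, is a short gene (chr8:72319033-72321656, + strand) with a single annotated start. Its promoter OCR (chr8:72318574-72319452) had its summit 0.1 kb upstream of the start, another at -1.2 kb had a percentile of 32.8 ± 10.8, and 1 at -2.3 kb was called in 2 libraries. The most intense distal OCR (chr8:72294265-72296454) lay between genes 23.2 kb upstream, with fold enrichments of 30.3, 52.2 and 57.2 in the lowest, median and highest library and a percentile of 88.7 ± 2.25. In each library it had more reads than the promoter, from 193 against 52 in HPC7-6 to 1221 against 338 in HPC7-1. The other 7 distal OCRs of all libraries had percentiles from 46.4 to 64.6, and that of the promoter, 64.1, was near the top of this range. Of these, 3 are in introns of Eps15l1, a gene of endocytosis downstream. Still farther upstream, at -37.2 kb, an OCR at the promoter of Gm39197 had a percentile of 93.3 ± 1.61, the highest in the window.

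Klf6 (chr13:5861482-5870394, + strand) had 5 distal OCRs in all libraries. The most intense (chr13:5844829-5846307, between genes, 15.7 kb upstream) had a percentile of 88.7 ± 1.88, which differed from that of the Klf2 element by less than the SD. Upstream at -23.9 kb lay another at 75.4 ± 6.22, and downstream at 14.1 kb 1 at 70.3 ± 6.45. Klf6 therefore had open elements on both sides of an intense promoter.

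Klf7 (chr1:64029447-64122282, - strand), known for neuronal development and for its action in hematopoietic stem cells, is the longest of the members at 92.8 kb, and 4 of its 5 distal OCRs of all libraries were in its own introns. The most intense (chr1:64084474-64085154), 37.4 kb into the gene, had fold enrichments of 19.1, 25.3 and 32.8 and a percentile of 81.4 ± 2.84. Another, 20.7 kb into the gene, was at 70.4 ± 5.35. The first lies also in an intron of Gm13748, whose own promoter OCR inside Klf7 was at 96.1 ± 0.875. Reads at these sites cannot be assigned to either gene.

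Klf4, a pluripotency factor that also acts in monocytes and epithelia, had 2 OCRs in its window (gene at chr4:55527143-55532466, - strand). The faint promoter OCR (chr4:55532172-55532669) stands against a distal OCR (chr4:55488443-55489671) that was called in all libraries, 43.7 kb downstream of the 5′ end and beyond the 3′ end. Its percentile was 70.8, 80.2 and 84.3 in the lowest, median and highest library, and its fold enrichment 22.2 ± 6.21. In the 4 libraries with both peaks, the log2 ratio of promoter to distal fold enrichment ran from -3.05 to -2.02. Klf4 was not in the test, which needs both in 7 libraries. With windows of 20 kb this OCR falls outside, so the Klf4 locus then has no OCR in all libraries.
Klf5 (chr14:99298691-99315036, + strand), a factor of gut and other epithelia, had no promoter OCR and 3 distal ones, 2 of them in 1 library each and 1 at 26.0 kb in 4 libraries, with a percentile of 17.4 ± 13.4 (SD, n = 4). These were the 3 VD libraries and 1 of the 4 EtOH libraries, and with a missing peak set to 0 the mean percentile of this OCR was 18.6 and 3.41, which was not tested. Klf5 was the member of the 9 without an OCR of any class in all libraries.

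Klf3 (chr5:64803388-64832901, + strand), which acts as a repressor in erythroid and B cells, showed its OCR at an internal start. No OCR lay within 500 bp of the 5′ cluster of 3 starts (64803388 to 64803622) in any library. The OCR (chr5:64812349-64813946) was at the second cluster of 3 starts (64812339 to 64812384), 9.0 kb into the gene, with its summit in an intron. Within 500 bp of the 5′ cluster 75.1% of the bases are G or C, against 52.4% within 500 bp of the internal one. The RefSeq promoters below are measured over another span, 250 upstream bases, in which Klf3 has 78.4% and overlaps an exon. Whether GC content bears on the missing OCR was not tested. Of 1048 RefSeq promoters (GRCm38.p6) whose 250 upstream bases hold 75% G and C or more, 77.0% overlapped an OCR in all libraries and 21.2% in none. The share open in all libraries rose with GC content, from 21.2% of promoters under 50% through 55.5% from 50 to 60%, 74.4% from 60 to 70% and 76.8% from 70 to 75%. The bases at the summit of the internal OCR are shown because they are the only open site of Klf3 in all libraries.
Klf3 internal OCR, chr5:64812801-64813000, + strand: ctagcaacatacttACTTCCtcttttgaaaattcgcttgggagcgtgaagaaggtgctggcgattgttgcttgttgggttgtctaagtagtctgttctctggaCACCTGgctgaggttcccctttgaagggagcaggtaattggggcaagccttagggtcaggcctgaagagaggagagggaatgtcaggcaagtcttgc
They hold an ETS type and an E-box match. The 3 distal OCRs of Klf3 were called in 1 or 2 libraries, with percentiles of at most 30.1.

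Klf9 (chr19:23141226-23168134, + strand), which responds to glucocorticoid and thyroid hormone, had no promoter OCR although other genes opened nearby. An OCR at the promoter of 2410080I02Rik, 6.2 kb upstream, was at 60.4 ± 8.70 in all libraries, and one near the start of Mir1192, inside an intron of Klf9, was called in 6. The single distal OCR (chr19:23193026-23193520, between genes, 52.1 kb from the 5′ end) had percentiles of 46.5, 61.0 and 69.9 in the lowest, median and highest library.
Klf10 (chr15:38291463-38300706, - strand) had the highest ratio of promoter to distal fold enrichment, within the SD of that of Klf7. A second promoter OCR, over coding sequence 3.2 kb into the gene, was at 76.9 ± 3.85. The distal OCR (chr15:38282284-38284458, between genes, 16.6 kb from the 5′ end) had a percentile of 77.5 ± 2.94, and only 1 other distal OCR was found in all libraries, at 31.7 ± 16.1.
Klf13 (chr7:63886351-63938915, - strand), known as a regulator of Ccl5 in T cells, had the most OCRs, 25, of which 6 were at its promoters and 5 of these in all libraries. An OCR beside its internal start 14.0 kb into the gene was at 80.3 ± 4.33, about the level of distal elements of Klf7 and Klf4. The distal OCR 27.9 kb into the gene (chr7:63910350-63912834), in its own intron, was the most intense of the 28, with fold enrichments of 38.3, 54.5 and 71.9 in the lowest, median and highest library and a percentile of 90.1 ± 1.63. Another intronic one, 8.6 kb in, was at 80.6 ± 4.29. The promoter of Gm27252, also inside Klf13, was at 94.4 ± 1.19.

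Upstream bases of promoters were taken from RefSeq (GRCm38.p6), in which 7 of 9 members matched. Klf5 and Klf10 had no entry. Those of Klf13, Klf4 and Klf9 are shown, from a wide open promoter, a faint one and one without an OCR; they were picked after their values were known and overlap no exon. Capitals mark CCNCNCCC on either strand.
Klf13 upstream bases, chr7:63938916-63939165, - strand: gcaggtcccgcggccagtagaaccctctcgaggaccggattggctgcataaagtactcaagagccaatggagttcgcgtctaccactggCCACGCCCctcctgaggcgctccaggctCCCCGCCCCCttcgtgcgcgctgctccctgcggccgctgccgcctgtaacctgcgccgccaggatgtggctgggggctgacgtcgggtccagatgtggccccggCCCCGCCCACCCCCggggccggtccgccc
Klf4 upstream bases, chr4:55532476-55532725, - strand: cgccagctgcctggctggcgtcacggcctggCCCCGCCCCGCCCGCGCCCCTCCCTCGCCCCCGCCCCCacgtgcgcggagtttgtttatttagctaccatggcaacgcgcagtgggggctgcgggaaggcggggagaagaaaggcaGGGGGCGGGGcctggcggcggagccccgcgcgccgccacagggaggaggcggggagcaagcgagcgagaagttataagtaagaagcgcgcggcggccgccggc
Klf9 upstream bases, chr19:23140976-23141225, + strand: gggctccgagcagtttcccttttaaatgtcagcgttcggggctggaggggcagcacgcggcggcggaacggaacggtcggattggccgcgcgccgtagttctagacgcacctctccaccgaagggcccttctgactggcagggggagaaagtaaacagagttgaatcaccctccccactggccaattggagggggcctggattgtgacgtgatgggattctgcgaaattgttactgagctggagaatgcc
CpG dinucleotides numbered 24 in the bases of Klf13, 32 in those of Klf4 and 18 in those of Klf9, where the median promoter had 10. The KLF and SP type letters matched at 5, 9 and 0 places, and 54.2% of 20150 promoters held at least 1 match. Among 5402 genes with as many CpG dinucleotides as Klf9 or more, 9.57% had no promoter OCR in any library, and among 1138 genes with as many as Klf4 or more, 86.6% had one in all 7. Among the promoters shown, the number of CpG dinucleotides did not follow openness, since the faint promoter of Klf4 had more than that of Klf13. Of the 7 matched members Klf7 had the fewest (13), but its bases, like those of Klf2, Klf3 and Klf6, overlap exons of the gene itself. They are therefore not all upstream sequence.

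By promoter percentile in the 7 libraries, the genes most like Klf7 were Rab5b, with a mean absolute difference of 0.0151 percentile points, and Clec11a and Shank1 (0.0243 each). Clec11a and Shank1 share their promoter OCRs, so their values are the same measurement. At the low end, Klf5 and Klf9 were among 7015 protein-coding genes with a value of 0 in all libraries, so no nearest genes can be named.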

How the data were processed

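Bulk ATAC-seq peak lists of 7 HPC7 libraries were used. The authors ran FastQC and Cutadapt on the reads, BWA-mem against mm10 and MACS2 on every library separately, and the versions and options are not given in the sources used here. A deposited row holds the fold enrichment over background (a ratio), the -log10 p-value and -log10 q-value, a score derived from the latter and where in the peak the summit lies. No scaling between libraries was stated, and the library numbered 3 was not analysed here. All fold enrichments (100%, tolerance 0.02) were whole multiples of 1 step per library, which gave the background and the reads at each summit. Intervals on these reads were not computed, and precision is given as the SD over libraries.

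Peaks were merged at 1 bp of overlap and assigned with GENCODE M21 (promoter within 3 kb of any start, otherwise distal). Promoter and distal OCRs were compared with an exact permutation test of the 128 ways to flip the signs of the 7 library differences, adjusted by Benjamini-Hochberg at 0.05 over all genes with both kinds of OCR. It was tested on simulated data. All members are named, with the most intense distal OCR of each, the 10 most intense distal OCRs of all windows, the 3 genes most like the highest member, and from each other list the 2 highest genes and every gene without a promoter OCR. Members and lists were chosen with earlier results of these data known. Alternatives were 1 kb promoters, windows of 20 and 80 kb, a -log10 q of at least 5, equal numbers of peaks (84593), 50% coverage, percentiles among promoter peaks, the second distal OCR, values within a prefix and each library left out. Sequences were read from GRCm38. Software comprised samtools 1.23.1, pysam 0.24.0 and Python 3.11.15 with numpy 2.4.6, scipy 1.17.1, pandas 2.3.3 and matplotlib 3.10.9.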

Additional observations from a re-analysis of the deposited data

How the results depend on the processing

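The ratio of promoter to distal fold enrichment kept its direction in all 75 values computed for the 5 tested KLF members under the alternatives, and 73 of them stayed on the same side of the threshold or, within a prefix, kept the sign. The exceptions are both of Klf2, -0.11 (exact permutation test, adjusted p = 0.492) with windows of 20 kb and -0.15 (adjusted p = 0.318) against the second distal OCR, since both leave out the element at -23.2 kb. The number of members whose distal OCR exceeded the promoter was then 0 in either case instead of 1. Adjusted p over the alternatives lay between 0.0167 and 0.492. Windows of 80 kb gave 156 merged OCRs, 83 of them in all libraries, instead of 102 and 49, because more sequence was taken, and Klf3 could then be tested too, so that 5 of 6 members had the promoter above instead of 4 of 5. Over all genes tested, the promoter was above at 8952 of 12983 with windows of 80 kb and at 9065 of 12126 with 40 kb. Among promoter peaks alone the median percentile of the 9 members was 57.8 instead of 70.2. Leaving out 1 library at a time kept 4 members with the promoter above and 1 with the distal OCR above, 6 with a promoter OCR in all libraries, and between 93 and 103 merged OCRs. No paired analysis was possible because there is no second group whose replicate numbers could be matched; promoter and distal OCRs are already compared within each library. A peak list holds no value for an OCR that was not called.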

Other observations

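The rest of the family ranged as widely in promoter openness, from no OCR to the most intense. Of 17 other KLF and SP genes, 11 had a promoter OCR in all libraries, above the 75th percentile in each, Klf12 had one in 6 libraries, and Klf14, Klf15, Klf17, Sp5 and Sp8 had none. Among all protein-coding genes, 61.0% had one in all libraries and 50.6% had one above the 75th percentile in each. The 2 highest of the 17 were Sp1, at the 99.9 ± 0.0264 percentile (SD, n = 7), and Sp4, at 99.6 ± 0.206. Both encode factors that bind GC-rich promoter elements. Klf1, the erythroid member of the family, was at 98.0 ± 0.477, and it lies on chromosome 8, where fold enrichments were higher. With fold enrichments divided by the chromosome's ratio to the median autosome, an alternative chosen after seeing the data, Sp1 stayed highest, Sp2 (222 ± 40.5) lay above Sp4 (218 ± 41.7), a difference smaller than their spread, and Klf1 was at 102 ± 21.5 instead of 140.3 ± 27.2.

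Genes whose products work with KLF proteins mostly had open promoters. All 10 corepressor and coactivator genes had an OCR in 7 of 7 libraries, the highest being Sin3a, the scaffold of a histone deacetylase complex, at 99.7 ± 0.0896, and Sap30, a subunit of that complex, at 99.4 ± 0.144. Sap30 lies on chromosome 8 too, and with the same division its mean fold enrichment was 143 ± 28.1 instead of 196 ± 34.9, beside 145 ± 21.2 for Hdac1, so its place as the second highest depends on that scaling. All 4 ubiquitin ligase genes did too, led by Btrc at 99.7 ± 0.122 and Fbxw7 at 98.5 ± 0.302. Of 6 genes acting upstream of Klf2, 5 did, led by Mef2d at 97.7 ± 0.514 and Map2k5 at 92.4 ± 1.69, and Mapk7 (the kinase ERK5) had none in any library. All 4 genes known as Klf2 targets in lymphocytes had one, led by S1pr1 at 98.8 ± 0.584 and Cdkn1a at 98.6 ± 0.573. In that list the promoter was the more intense at 2 genes and the distal OCR at 2 (the exact permutation test of the report), where the shares over all tested genes were 74.8% and 19.4%. For comparison, 61.0% of all protein-coding genes had a promoter OCR in all libraries.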
